A study of Mus musculus with 8 samples.

Results

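The 10 genes followed here mark or govern blood stem and progenitor cells, and they were read in T cell lymphoma cells of the mouse that had been sorted by surface CD44. They are the surface molecules Kit, Flt3, Cd34, Prom1 and Ly6a, and the transcriptional regulators Myb, Gfi1, Meis1, Lmo2 and Tal1. The genes were taken by name, and every probe set that the platform annotation assigns to 1 of them alone was used. This gave 12 probe sets of 9 genes, out of 22626 probe sets and 12393 genes in all. Myb has 3 of these probe sets, Kit has 2 and the other seven genes have 1 each. Ly6a is not analysed here.

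The samples were 4 arrays of CD44hi cells and 4 arrays of CD44lo cells, numbered 1 to 4 in each group. Both groups came from established lymphoma lines deficient in Snf5, the SWI/SNF chromatin remodelling subunit encoded by Smarcb1, so the loss of Snf5 is shared by both sides of the comparison and no Snf5-competent cells were compared here. The labels give no age, strain, sex, treatment or Cre driver, and they say neither how many lines were used nor whether replicates were separate cultures. The p-values therefore cover only array to array spread, part or all of which may be technical. RNA was hybridised to Affymetrix Mouse 430A 2.0 arrays, in which a gene is read by 1 or more sets of short oligonucleotide probes.

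In the bone marrow, KIT and FLT3 are receptor tyrosine kinases that bind stem cell factor and FLT3 ligand and keep stem cells and multipotent progenitors alive and dividing, and CD34 and prominin-1 (CD133) are surface glycoproteins used to purify such cells. TAL1 and LMO2 sit in one DNA-bound complex that specifies blood stem cells and is normally silenced as T cells mature; its return is a cause of T cell acute leukaemia. MEIS1 is a homeodomain cofactor of HOX proteins, MYB drives the growth of progenitors and immature thymocytes, and GFI1 is a zinc finger repressor that restrains stem cell division and is needed for thymocyte and granulocyte development. Most of these genes are shut off in mature T cells, whereas GFI1 and MYB are used again by thymocytes and activated T cells.

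Myb and Gfi1 were the members whose levels set arrays 1 and 3 furthest from arrays 2 and 4 in both groups, and the genome sequence just before their start sites is shown for that reason. Each line gives the 250 bases upstream of the annotated start in the direction of transcription, from the RefSeq promoter table of assembly GRCm38.p6. Myb lies on the minus strand at chr10:21160985-21161234 and Gfi1 on the minus strand at chr5:107725806-107726055. Capitals mark AATC, the core that GFI1 binds, and GGCGGGA, a motif of the cell cycle factors of the E2F family, each searched on both strands.
Myb: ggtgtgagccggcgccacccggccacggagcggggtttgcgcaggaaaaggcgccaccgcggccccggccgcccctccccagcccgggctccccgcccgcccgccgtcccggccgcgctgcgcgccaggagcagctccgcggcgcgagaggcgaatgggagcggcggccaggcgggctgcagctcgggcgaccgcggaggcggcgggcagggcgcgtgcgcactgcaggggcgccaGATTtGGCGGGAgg
Gfi1: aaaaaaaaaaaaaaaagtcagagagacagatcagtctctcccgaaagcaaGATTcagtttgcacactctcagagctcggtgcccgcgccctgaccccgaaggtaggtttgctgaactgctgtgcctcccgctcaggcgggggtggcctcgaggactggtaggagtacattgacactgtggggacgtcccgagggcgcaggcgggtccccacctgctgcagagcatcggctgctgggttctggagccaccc
The Myb window held 1 AATC core, read on the opposite strand, from 14 to 11 bases before the start, and 1 GGCGGGA from 9 to 3 bases before it, with no overlap between them. The table holds 1 window for Myb and 2 for Gfi1, of which the window at the more upstream start is shown. That Gfi1 window held 1 AATC core, also on the opposite strand, from 200 to 197 bases before the start, and 0 copies of GGCGGGA. The other Gfi1 window held 0 matches to AATC and 0 to GGCGGGA. None of these windows held the MYB motifs TAACNG or CAACNG. Of all 32851 windows of this length in the table, 69.0% held AATC, 9.75% held GGCGGGA and 43.1% held 1 of the MYB motifs. The E2F motif was chosen after the sequences were seen, and a match of letters is a description and no measurement of binding.

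**Figure D1:**
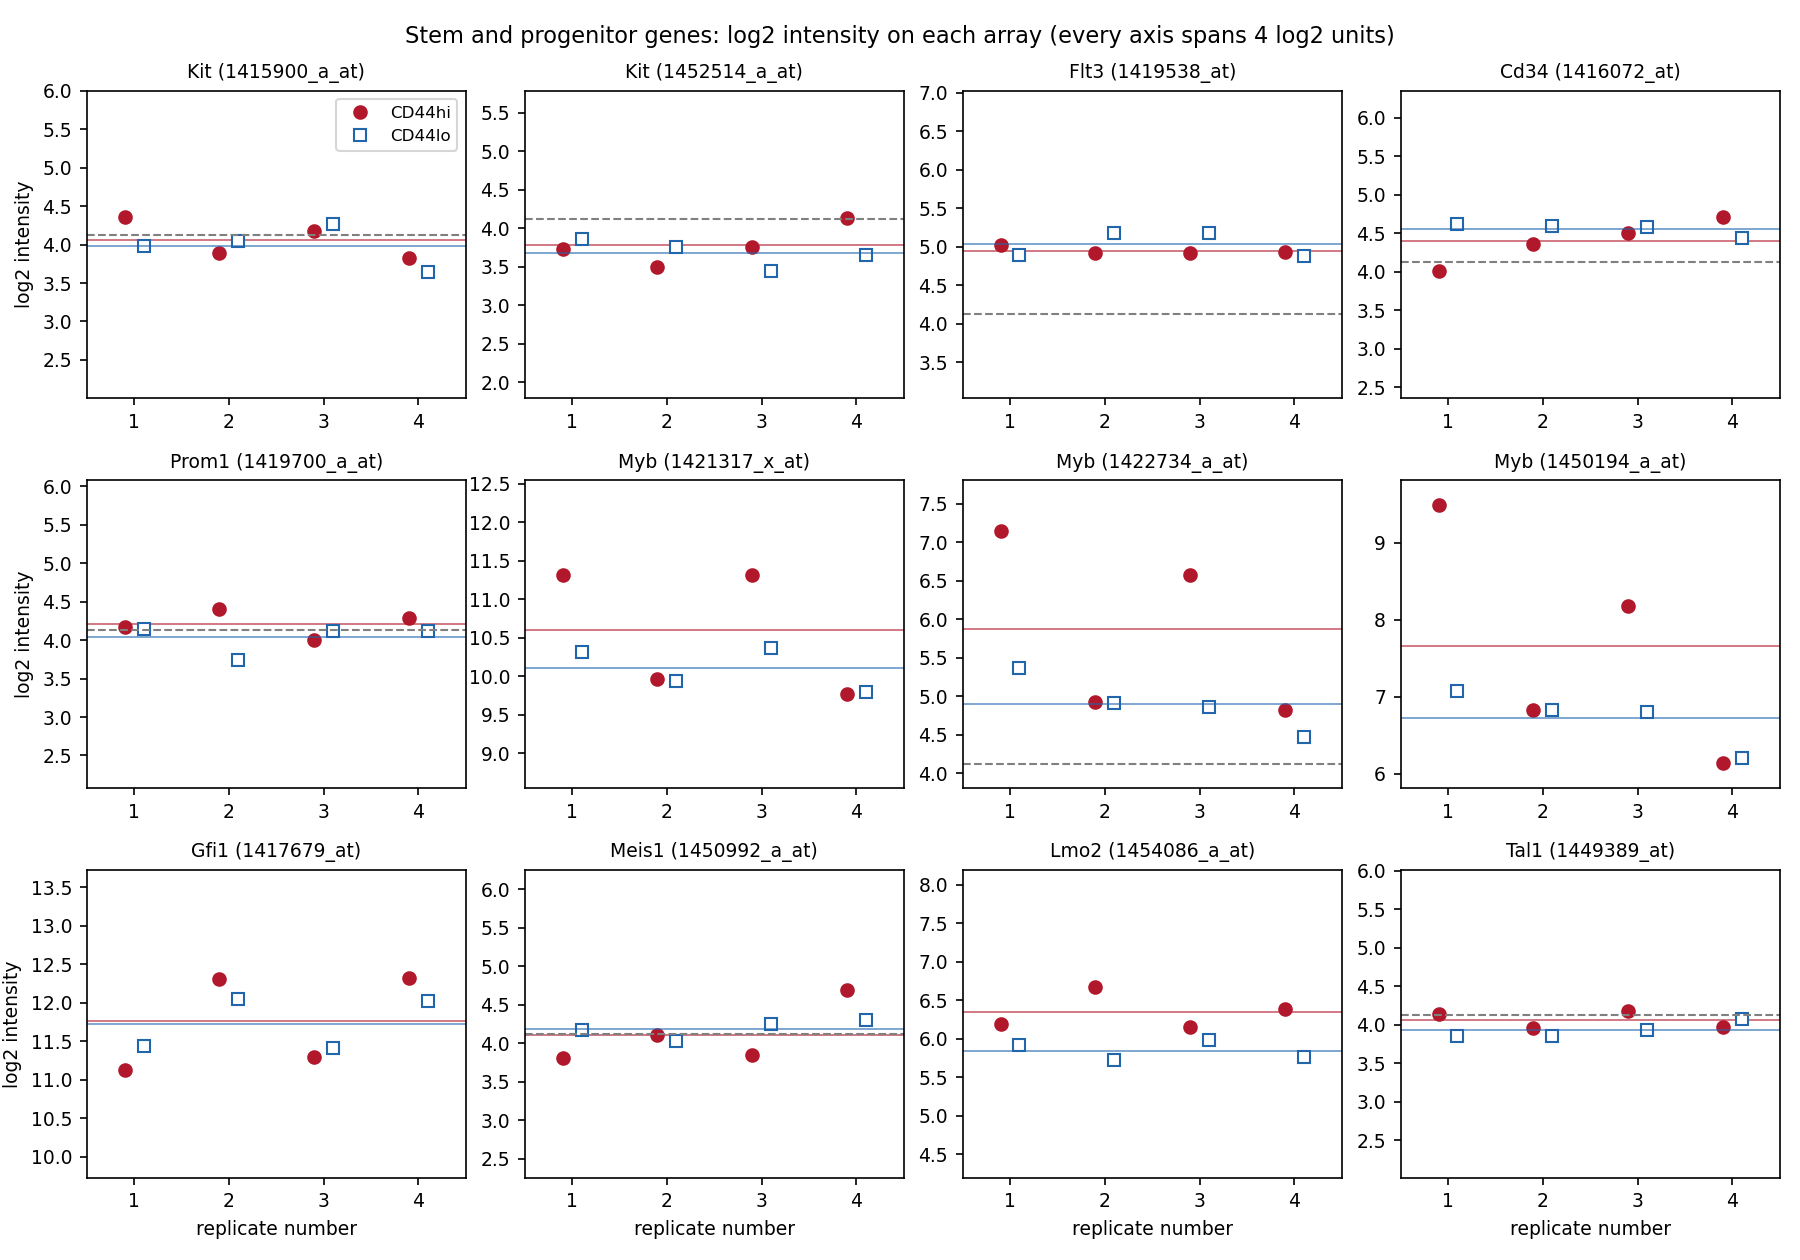
Log2 intensity of the 12 probe sets of 9 stem and progenitor genes (vertical axes, each spanning 4 log2 units) against replicate number, with CD44hi arrays as filled circles, CD44lo arrays as open squares, group means as solid lines and the highest array median of bacterial control probe sets, 4.12, as a dashed line. Myb stands high in CD44hi arrays 1 and 3 at each of its 3 probe sets, Gfi1 stands high in arrays 2 and 4 of both groups, and Lmo2 is the 1 panel whose groups do not overlap.

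The main reading of these genes was that most lay near the floor of the array, that Gfi1, Lmo2 and 2 of the 3 Myb probe sets lay above the 25th percentile of all values, 5.27, on every array, and that the CD44 sort by itself did not separate any of them past the test. Of the 12 probe sets, 0 were called as higher and 0 as lower in CD44hi cells (Benjamini-Hochberg adjusted p under 0.05 by limma, over all 22626 probe sets). Over all probe sets 3.12% were called, 1.64% as higher and 1.48% as lower, so 0 of 12 is near the background. At an unadjusted p under 0.05, limma passed 1 member probe set, that of Lmo2, against 11.8% of all probe sets. With the replicate number as a block limma again called 0 of the 12, against 5.15% of all. The median difference of the 12 probe sets, CD44hi minus CD44lo on the log2 scale, was 0.12, and that of all probe sets was -0.0011.

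The lymphoma cells carried T cell transcripts in both groups. Of 13 measured T lineage markers 0 were called by limma (2 had an unadjusted p under 0.05), and the brightest, the CD3 and CD8 chains Cd3d, Cd3g and Cd8a, had mean log2 intensities of 14.14, 13.94 and 13.86 on CD44hi arrays and 14.18, 14.00 and 13.87 on CD44lo arrays. The T cell surface markers Thy1 and Cd5, named after their values were seen, were dim in both groups, with means of 4.47 and 4.32 on CD44hi arrays and 4.55 and 4.29 on CD44lo arrays. The sorted marker Cd44 lay between 11.20 and 11.73 on CD44hi arrays and between 4.92 and 5.94 on CD44lo arrays. Array medians lay between 320.2 and 339.3 on the linear intensity scale, and precision is limited by there being 4 arrays a group. Arrays numbered 1 and 3 were alike within each group and apart from arrays 2 and 4: the root mean square difference over all probe sets was 0.18 on the log2 scale between arrays 1 and 3 in both groups, 0.31 and 0.20 between arrays 2 and 4 of CD44hi and CD44lo, and 0.43 and 0.33 between arrays 1 and 2. The labels name no batch, and what the numbers stand for is not stated. In sorted bulk samples, fewer cells of a type and less RNA per cell cannot be told apart.

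Among the surface receptors, Kit was not measurable above background. The probe set 1415900_a_at had log2 intensities of 4.36, 3.89, 4.17 and 3.82 on CD44hi arrays 1 to 4 and 3.98, 4.05, 4.26 and 3.65 on CD44lo arrays 1 to 4. At 1452514_a_at the values were 3.73, 3.50, 3.76 and 4.14 in CD44hi and 3.87, 3.76, 3.44 and 3.66 in CD44lo. The groups overlapped at both probe sets, and both group means lay below 4.12, the highest array median of 27 bacterial control probe sets, which have no target in mouse RNA. The differences were 0.08 (95% interval -0.29 to 0.44) and 0.10 (-0.23 to 0.43), with limma adjusted p of 0.943 and 0.906.

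Flt3, the receptor of FLT3 ligand, stood a little above that floor on every array. Its values were 5.02, 4.92, 4.91 and 4.93 in CD44hi and 4.89, 5.17, 5.17 and 4.88 in CD44lo. All 8 were under 5.27, the 25th percentile over the whole table. Its CD44hi values fell inside the range of the CD44lo values, with a difference of -0.08 (95% interval -0.30 to 0.13; limma adjusted p = 0.865).

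Cd34, the sialomucin used to sort human and mouse progenitors, was at 4.01, 4.37, 4.50 and 4.71 in CD44hi and at 4.62, 4.60, 4.58 and 4.44 in CD44lo. The CD44lo arrays lay close together and CD44hi array 1 was the lowest of the 8. The difference was -0.17 (95% interval -0.48 to 0.15; limma adjusted p = 0.789).

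Prom1, the gene of CD133, was at 4.16, 4.41, 4.00 and 4.28 in CD44hi and at 4.15, 3.75, 4.12 and 4.12 in CD44lo. CD44lo array 2 stood apart below the others, and the groups overlapped. The difference was 0.18 (95% interval -0.10 to 0.46; limma adjusted p = 0.701).

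A pair of the transcriptional regulators were as dim. Meis1 was at 3.80, 4.10, 3.84 and 4.70 in CD44hi and at 4.18, 4.02, 4.25 and 4.30 in CD44lo. The CD44hi values spanned the CD44lo values, and the difference was -0.08 (95% interval -0.50 to 0.35; limma adjusted p = 0.951). Tal1, the helix-loop-helix partner of LMO2, was at 4.14, 3.96, 4.17 and 3.97 in CD44hi and at 3.85, 3.85, 3.93 and 4.07 in CD44lo. Its group means both lay under the bacterial control reference, with a difference of 0.13 (95% interval -0.07 to 0.33; limma adjusted p = 0.678).

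Kit, Flt3, Cd34, Prom1, Meis1 and Tal1 thus had both group means under that 25th percentile at each of their 7 probe sets, with single values from 3.44 to 5.17. Of these 7 probe sets, 3 had both group means at or below the bacterial control reference, namely the pair for Kit and that of Tal1, and 2 had 1 group mean there, those of Prom1 and Meis1. The widest 95% interval bound of the 7 was 0.50 on the log2 scale, or 1.42-fold. Near background the array compresses differences, so a larger change between 2 low levels of RNA would not be detectable here, and a gene at this level is not shown to be absent.

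Lmo2, the bridging protein of the TAL1 complex, was the member nearest to a difference by CD44. Its log2 intensities were 6.19, 6.67, 6.16 and 6.38 in CD44hi and 5.92, 5.72, 5.98 and 5.77 in CD44lo. All 4 CD44hi arrays lay above all 4 CD44lo arrays, which over all probe sets held for 9.34% in either direction. The means were 6.35 ± 0.23 and 5.85 ± 0.12 (SD, n = 4 each), a log2 difference of 0.50 (SE 0.13, 95% interval 0.22 to 0.79) or 1.42-fold, which did not pass the test (limma adjusted p = 0.0800, or 0.107 with the replicate block).

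The Lmo2 difference was positive at each replicate number, at 0.28, 0.95, 0.17 and 0.61 for numbers 1 to 4. Between arrays 2 and 4 alone it was 0.78, or 1.72-fold, and passed (limma adjusted p = 0.0486, against 3.49% of all probe sets called in that fit). Between arrays 1 and 3 alone it was 0.22 (limma adjusted p = 0.172). The change of the difference between these sets of arrays, -0.56 (95% interval -0.92 to -0.20), did not pass over all probe sets (limma interaction, adjusted p = 0.174). Leaving out 1 array at a time gave differences from 0.40 to 0.57 with limma adjusted p from 0.0819 to 0.222. The interaction ran from -0.70 to -0.42 over the 8 fits that leave out 1 array, the most negative without CD44hi replicate 4. Each of these fits leaves 1 array in a set of 1 group, so only sizes are given.

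Myb was the member with the largest difference between the group means and the widest spread. At 1421317_x_at, its brightest probe set, the log2 intensities were 11.32, 9.97, 11.32 and 9.77 in CD44hi and 10.32, 9.94, 10.37 and 9.79 in CD44lo. At 1422734_a_at they were 7.14, 4.92, 6.58 and 4.83 in CD44hi and 5.37, 4.92, 4.86 and 4.47 in CD44lo. At this probe set 5 of the 8 arrays, all but CD44hi arrays 1 and 3 and CD44lo array 1, lay under the 25th percentile, where the array compresses differences. At 1450194_a_at they were 9.49, 6.82, 8.18 and 6.14 in CD44hi and 7.08, 6.82, 6.81 and 6.21 in CD44lo. At all 3 probe sets CD44hi arrays 1 and 3 stood above the other six arrays, while CD44hi arrays 2 and 4 lay at or near the CD44lo arrays of the same number.

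Averaged over the 4 arrays of each group, none of the 3 differences passed with arrays weighted equally. The differences at 1421317_x_at, 1422734_a_at and 1450194_a_at were 0.49 (SE 0.37), 0.96 (SE 0.51) and 0.93 (SE 0.63), and the limma adjusted p were 0.742, 0.551 and 0.695. Their 95% intervals ran from -0.35 to 1.33, from -0.19 to 2.12 and from -0.51 to 2.37. Leaving out 1 array at a time gave 0.25 to 0.76, 0.54 to 1.31 and 0.32 to 1.44, the lowest without CD44hi replicate 3 for the first and replicate 1 for the others and the highest without CD44hi replicate 4, and 0 of these fits passed (limma adjusted p from 0.262 to 0.887). With array weights, which give arrays that vary more a smaller part, the differences were 0.92, 1.57 and 1.60. That at 1422734_a_at passed (limma adjusted p = 0.0980, 0.0432 and 0.103). The weighted fit called more of all probe sets too, 620 as higher and 656 as lower, against 371 and 334 with equal weights. Its Myb differences lay nearer to those between arrays 1 and 3 alone, 0.98, 1.75 and 1.89, than to the equally weighted ones. The suffix _x_at marks a probe set with probes that may hybridise to other transcripts, and _a_at marks one that reads several transcripts of the gene, so the 3 probe sets need not report the same Myb RNA.

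**Figure D2:**
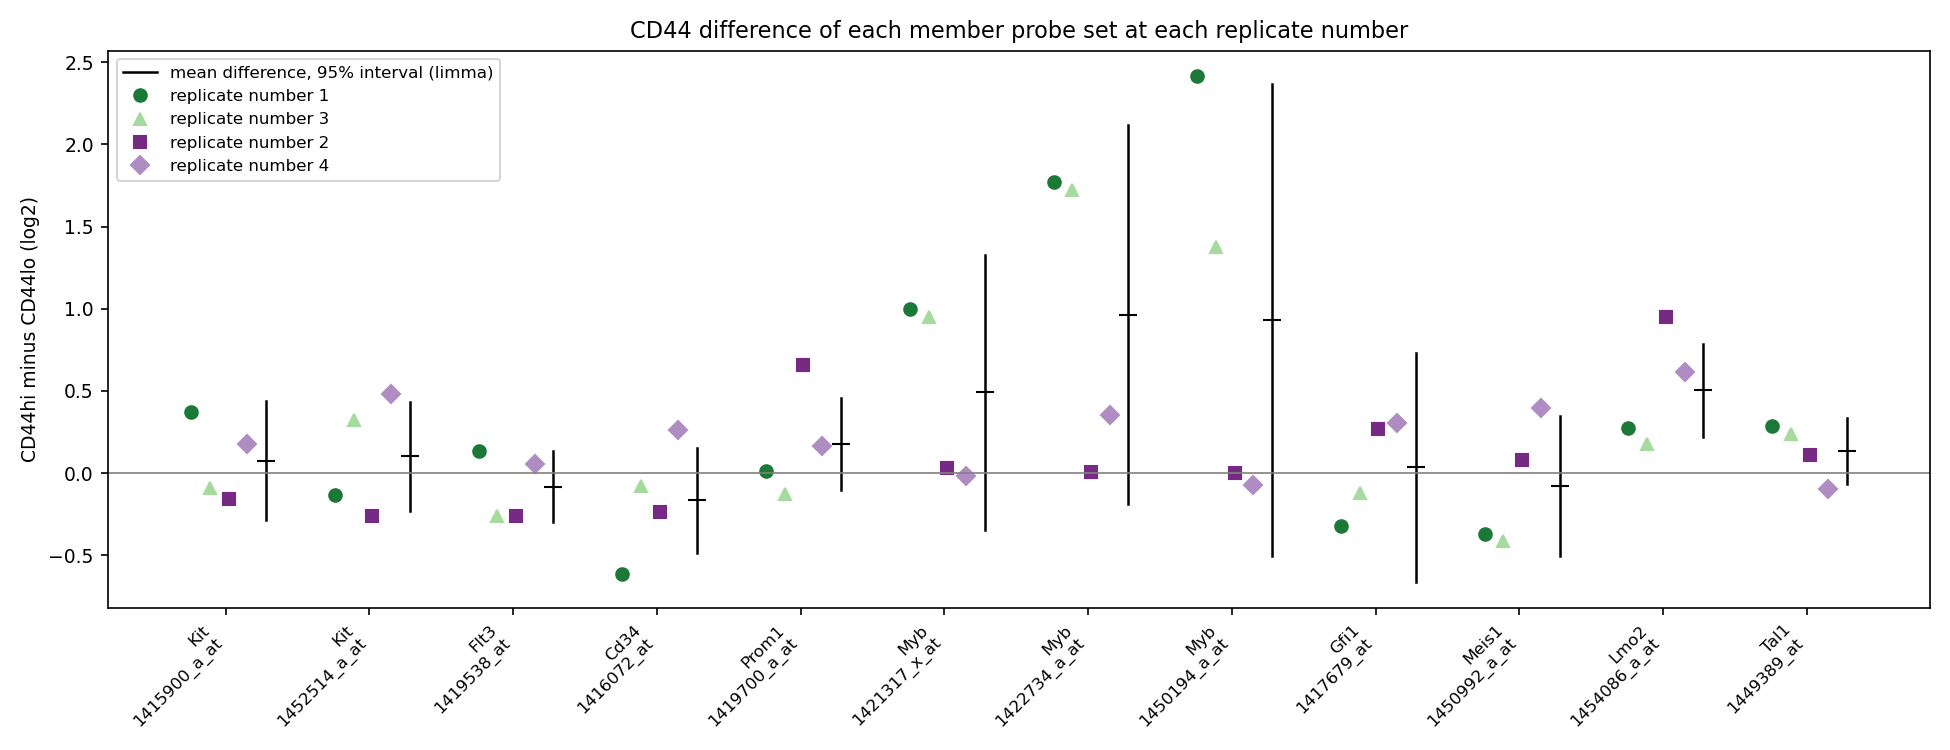
CD44hi minus CD44lo on the log2 scale (vertical axis) for each of the 12 probe sets (horizontal axis), with 1 symbol per replicate number and a bar for the mean difference and its 95% interval from limma. The 3 Myb probe sets lie between 0.95 and 2.42 at numbers 1 and 3 and between -0.07 and 0.35 at numbers 2 and 4, and Lmo2 lies above 0 at all 4 numbers.

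By replicate number the Myb difference fell into 2 kinds of arrays. At 1421317_x_at it was 1.00 and 0.95 at numbers 1 and 3 and 0.03 and -0.02 at numbers 2 and 4. At 1422734_a_at it was 1.77 and 1.72 against 0.01 and 0.35, and at 1450194_a_at it was 2.42 and 1.37 against 0.00 and -0.07. Between arrays 1 and 3 alone the differences of the 3 probe sets were 0.98, 1.75 and 1.89, or 1.97-fold, 3.35-fold and 3.72-fold higher in CD44hi. The first and the second passed there (limma adjusted p = 0.00494 and 0.0315, against 4.96% of all probe sets called in that fit) and the third did not (0.0923). Between arrays 2 and 4 alone the differences were 0.0044, 0.18 and -0.04, and the limma adjusted p were 0.994, 0.725 and 0.975.

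The dependence of the CD44 difference on the set of arrays was tested as an interaction over all probe sets. It passed at 1421317_x_at, where the difference at numbers 1 and 3 exceeded that at 2 and 4 by 0.97 (SE 0.14, 95% interval 0.64 to 1.30; limma interaction, adjusted p = 0.0372). At 1422734_a_at the excess was 1.56 (SE 0.35, adjusted p = 0.108 by the limma interaction) and at 1450194_a_at 1.93 (SE 0.62, adjusted p = 0.235), neither of which passed. This made 1 of the 12 member probe sets, against 0.857% of all probe sets. At an unadjusted p under 0.05 the limma interaction passed 6 of the 12, against 13.5% of all. These were the 3 probe sets of Myb with those of Gfi1, Lmo2 and Prom1. The 3 of Myb share a gene and are not separate observations. That of Prom1 lay near the floor, with 4 of 8 arrays at or below the bacterial control reference. With 1 array left out its interaction ran from -0.65 to -0.28, the smallest without CD44lo replicate 2, the array that stood apart.

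The split into arrays 1 and 3 against 2 and 4 comes from the likeness of the arrays over all genes and not from the labels. The p-values of the interaction and of each set of arrays alone take no account of that choice and may be too low. With 2 arrays a side the call was also fragile. The limma adjusted p was 0.0924 with the replicate block, and it was 0.168 and 0.180 without CD44hi replicate 1 or 3 and 0.201, 0.176, 0.161 and 0.120 without CD44lo replicate 1, 2, 3 or 4, while the size stayed between 0.87 and 1.07 over the 8 fits that leave out 1 array.

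Gfi1 was bright in every array and did not differ by CD44 on average. Its log2 intensities were 11.12, 12.31, 11.29 and 12.33 in CD44hi and 11.44, 12.04, 11.41 and 12.02 in CD44lo. In both groups arrays 2 and 4 were the high ones, and the group means were 11.76 ± 0.65 and 11.73 ± 0.35 (SD, n = 4 each). The CD44 difference was 0.03 (95% interval -0.67 to 0.73; limma adjusted p = 0.990), an interval that reaches 1.66-fold higher in CD44hi.

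The direction of the Gfi1 difference turned with the replicate number, at -0.32 and -0.12 for numbers 1 and 3 and 0.27 and 0.31 for numbers 2 and 4. The change between the sets of arrays was -0.51 (SE 0.12, 95% interval -0.80 to -0.22) and did not pass over all probe sets (limma interaction, adjusted p = 0.131). Arrays 1 and 3 lay below arrays 2 and 4 by 1.11 in CD44hi and by 0.61 in CD44lo. Myb at 1421317_x_at went the other way, with arrays 1 and 3 above arrays 2 and 4 by 1.45 in CD44hi and 0.48 in CD44lo. At this probe set the arrays richest in Myb signal were those poorest in Gfi1 signal, in each group, which describes 8 arrays in 2 sets and was not tested.

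Signs of RNA quality moved with the same arrays. For the Actb controls, the 3' probe set exceeded the 5' one on the log2 scale by 0.47 and 0.53 on CD44hi arrays 1 and 3, 0.79 and 0.71 on CD44hi arrays 2 and 4, 0.38 and 0.44 on CD44lo arrays 1 and 3, and 0.61 and 0.56 on CD44lo arrays 2 and 4. The Gapdh ratio moved with the sort, from 0.76 to 0.88 in CD44hi and from 0.65 to 0.73 in CD44lo. Their part in the patterns of Myb, Gfi1 and Lmo2 was not tested.

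The genes most alike to the members in their pattern over the 8 arrays were sought by the root mean square distance between log2 profiles. Each profile was centred on its own mean, and genes named only after a clone or locus were passed over. The search was made for the 2 members with the largest CD44 difference at a probe set above the bacterial control reference, and at that probe set only, so Myb was searched at its dimmest probe set, with 5 of 8 arrays under the 25th percentile, and not at 1421317_x_at or 1450194_a_at, and Gfi1 was not searched. For Myb at 1422734_a_at they were Serpinb1a, an inhibitor of neutrophil proteases, at a distance of 0.24, Nos1, a nitric oxide synthase, at 0.32, and Gatm, an enzyme of creatine synthesis, at 0.38. The median probe set of the other genes lay at 0.90, and a profile that is flat over the arrays would lie at 0.89. Serpinb1a was at 6.56, 4.60, 6.65 and 4.83 on CD44hi arrays 1 to 4 and at 5.13, 4.94, 4.89 and 4.67 on CD44lo arrays 1 to 4. Like Myb at this probe set, it stood highest in CD44hi arrays 1 and 3. Nos1 was at 7.41 and 7.38 on these 2 arrays and between 5.68 and 5.89 on the other six.

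For Lmo2 the nearest were Cbx8, a Polycomb subunit, at 0.08, Bcl9l, a coactivator of beta-catenin, at 0.08, and the zinc finger gene Zfp24 at 0.09. The median probe set lay at 0.34 and a flat profile would lie at 0.30. Cbx8 was at 8.44, 8.66, 8.33 and 8.49 in CD44hi and at 8.10, 7.95, 8.09 and 7.89 in CD44lo. It was called as higher in CD44hi (log2 difference 0.47, limma adjusted p = 0.0298), a call that was kept in 1 of the 8 fits that leave out 1 array, that without CD44hi replicate 3 (adjusted p up to 0.104 in the others). Bcl9l and Zfp24 differed by 0.40 and 0.41 without passing (limma adjusted p = 0.175 and 0.136).

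**Figure D3:**
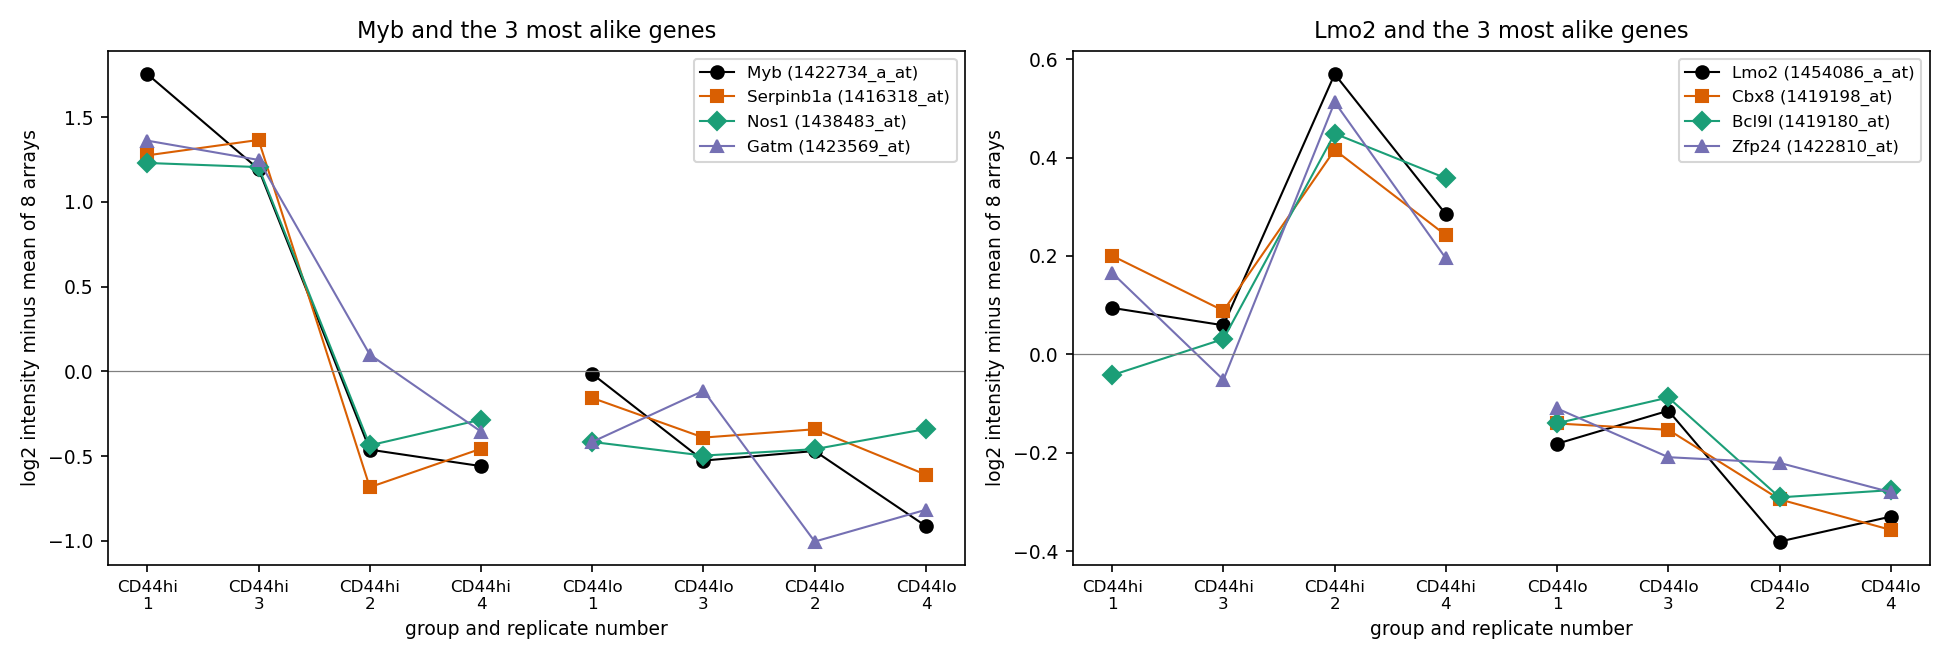
Log2 intensity minus each gene's mean over 8 arrays (vertical axes) by group and replicate number (horizontal axes). Myb (left) and Lmo2 (right) are in black, and the 3 genes nearest to each, clone-named genes aside, are in colour. Myb, Serpinb1a, Nos1 and Gatm peak in CD44hi arrays 1 and 3, and Lmo2 and its 3 neighbours are highest in CD44hi arrays 2 and 4.

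Genes that work with these members were taken from 7 lists of partners, ligands, paralogs and other stem cell genes, each read at its brightest probe set. Of 134 such genes measured, limma called 3 as higher in CD44hi and 3 as lower, together 4.48%, against 3.51% of all 12393 genes (1.88% higher and 1.63% lower). Their median difference was 0.02 on the log2 scale and that of all genes -5.9e-05. With the replicate block 6 were higher and 5 lower, or 8.21%, against 5.66% of all genes. The lists were written with earlier results of these data known.

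Among 24 measured ligands and signalling genes of KIT and FLT3, 1 was higher and 1 lower. Socs2, an inhibitor of cytokine receptor signalling, was at 10.34, 11.45, 10.39 and 11.16 in CD44hi and at 6.75, 6.62, 7.01 and 6.93 in CD44lo, a log2 difference of 4.01 (SE 0.25, limma adjusted p = 4.1e-05). Ptpn6, the phosphatase SHP-1 that dampens KIT signalling, was at 10.25, 10.07, 10.30 and 10.48 in CD44hi and at 11.00, 10.84, 10.95 and 10.82 in CD44lo. It fell by 0.63 (SE 0.10, limma adjusted p = 0.00965), and its dimmer probe set differed by -0.36 without passing (limma adjusted p = 0.161). Kitl, the gene of stem cell factor, was near background at all 4 probe sets, between 3.34 and 5.09.

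Of the 24 genes of the TAL1 and LMO2 complex and its leukaemia partners, 1 was higher and 1 lower. Gata3, a T lineage factor of the same family as the GATA subunit of that complex, was at 6.13, 6.26, 6.26 and 6.19 in CD44hi and at 9.76, 9.71, 9.43 and 10.21 in CD44lo. It fell by 3.57 (SE 0.15, limma adjusted p = 4.4e-06). Id2, which blocks the E proteins that TAL1 pairs with, rose by 0.54 (SE 0.11, limma adjusted p = 0.0269) at its brightest probe set, whereas its other probe sets differed by 0.29 and 0.0005 without passing. Lyl1, the paralog of Tal1, was at 4.85 to 5.15 in CD44hi and 4.65 to 5.23 in CD44lo. Ldb1, the dimerising subunit of the complex, Tcf3, which codes for the E proteins, Gata2 and Runx1 differed by -0.06, 0.05, -0.02 and 0.01 at their brightest probe sets, with limma adjusted p of 0.933 to 0.984.

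Among 19 partners, targets and paralogs of MYB and GFI1, 2 were higher and 1 lower. The interleukin-7 receptor gene Il7r, a target that GFI1 represses in lymphocytes, was at 12.32, 12.84, 12.36 and 12.93 in CD44hi and at 9.73, 10.30, 9.83 and 10.47 in CD44lo, a log2 difference of 2.53 (SE 0.21, limma adjusted p = 1.9e-04). The other was Id2, which passed in 2 of the 8 fits that leave out 1 array, those without CD44hi replicate 3 or CD44lo replicate 1 (limma adjusted p up to 0.0952 in the others). The cell cycle inhibitor Cdkn1a fell by 0.93 (SE 0.19, limma adjusted p = 0.0314) and by 0.48 at its second probe set (limma adjusted p = 0.0125). At the first probe set the call was lost without CD44hi replicate 4 or any 1 of the CD44lo arrays (limma adjusted p up to 0.109). Mybl2, the paralog that acts in dividing cells, was at 9.52, 8.15, 9.38 and 8.37 in CD44hi and at 9.30, 8.63, 9.49 and 8.63 in CD44lo, higher in arrays 1 and 3 of both groups, with a CD44 difference of -0.16 (limma adjusted p = 0.948). Mybl1 and Gfi1b, the other paralogs, lay between 4.70 and 5.45, and Kdm1a, the demethylase that GFI1 recruits, was bright and differed by -0.01 (limma adjusted p = 0.991).

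Of 12 measured partners and paralogs of MEIS1 0 were called by limma (2 had an unadjusted p under 0.05), and 2 were lower with the replicate block. Meis2, the paralog of Meis1, was at 7.20, 6.74, 7.04 and 6.67 in CD44hi and at 8.04, 7.28, 8.11 and 7.17 in CD44lo. Each CD44hi array lay below the CD44lo array of the same number, with a log2 difference of -0.74 (limma adjusted p = 0.188, or 0.0162 with the replicate block). Hoxa10 differed by -0.69 in the same way (limma adjusted p = 0.123, or 0.00822 with the block). Hoxa9, the best known partner of MEIS1 in leukaemia, lay between 5.29 and 5.63 at its brighter probe set and differed by 0.08 (limma adjusted p = 0.871). Its dimmer probe set, below the 25th percentile on all 8 arrays, differed by -0.28 without passing (limma adjusted p = 0.577).

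The lists of other stem cell genes held few differences. Of 25 stem cell transcription factors and regulators 0 were called by limma (3 had an unadjusted p under 0.05). The RNA-binding protein gene Msi2 was higher with the replicate block, at 10.41, 11.19, 10.16 and 10.62 in CD44hi against 9.82, 9.93, 9.64 and 9.86 in CD44lo. Its log2 difference was 0.78 (limma adjusted p = 0.0852, or 0.0231 with the block). The dimmer Msi2 probe set, below the 25th percentile on all 8 arrays, differed by 0.03 (limma adjusted p = 0.970, or 0.907 with the block). Of 25 surface molecules Il7r was the 1 called gene. With the block the chemokine receptor gene Cxcr4 and the cytokine receptor subunit gene Il6st were also higher, by 1.05 and 0.45. Their limma adjusted p were 0.0311 and 0.0194 with the block and 0.546 and 0.682 without. The dimmer Il6st probe sets differed by 0.43 and 0.47 and did not pass with the block (limma adjusted p = 0.0840 and 0.109). Of 12 relatives of LY6A and prominin 0 were called by limma (2 had an unadjusted p under 0.05), and Prom2, the paralog of Prom1, differed by 0.32 (limma adjusted p = 0.328). That Prom2 probe set lay below the 25th percentile on 7 of 8 arrays, and the dimmer one differed by 0.08 (limma adjusted p = 0.908). Flt3l and Ly6e are not analysed here.

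**Figure D4:**
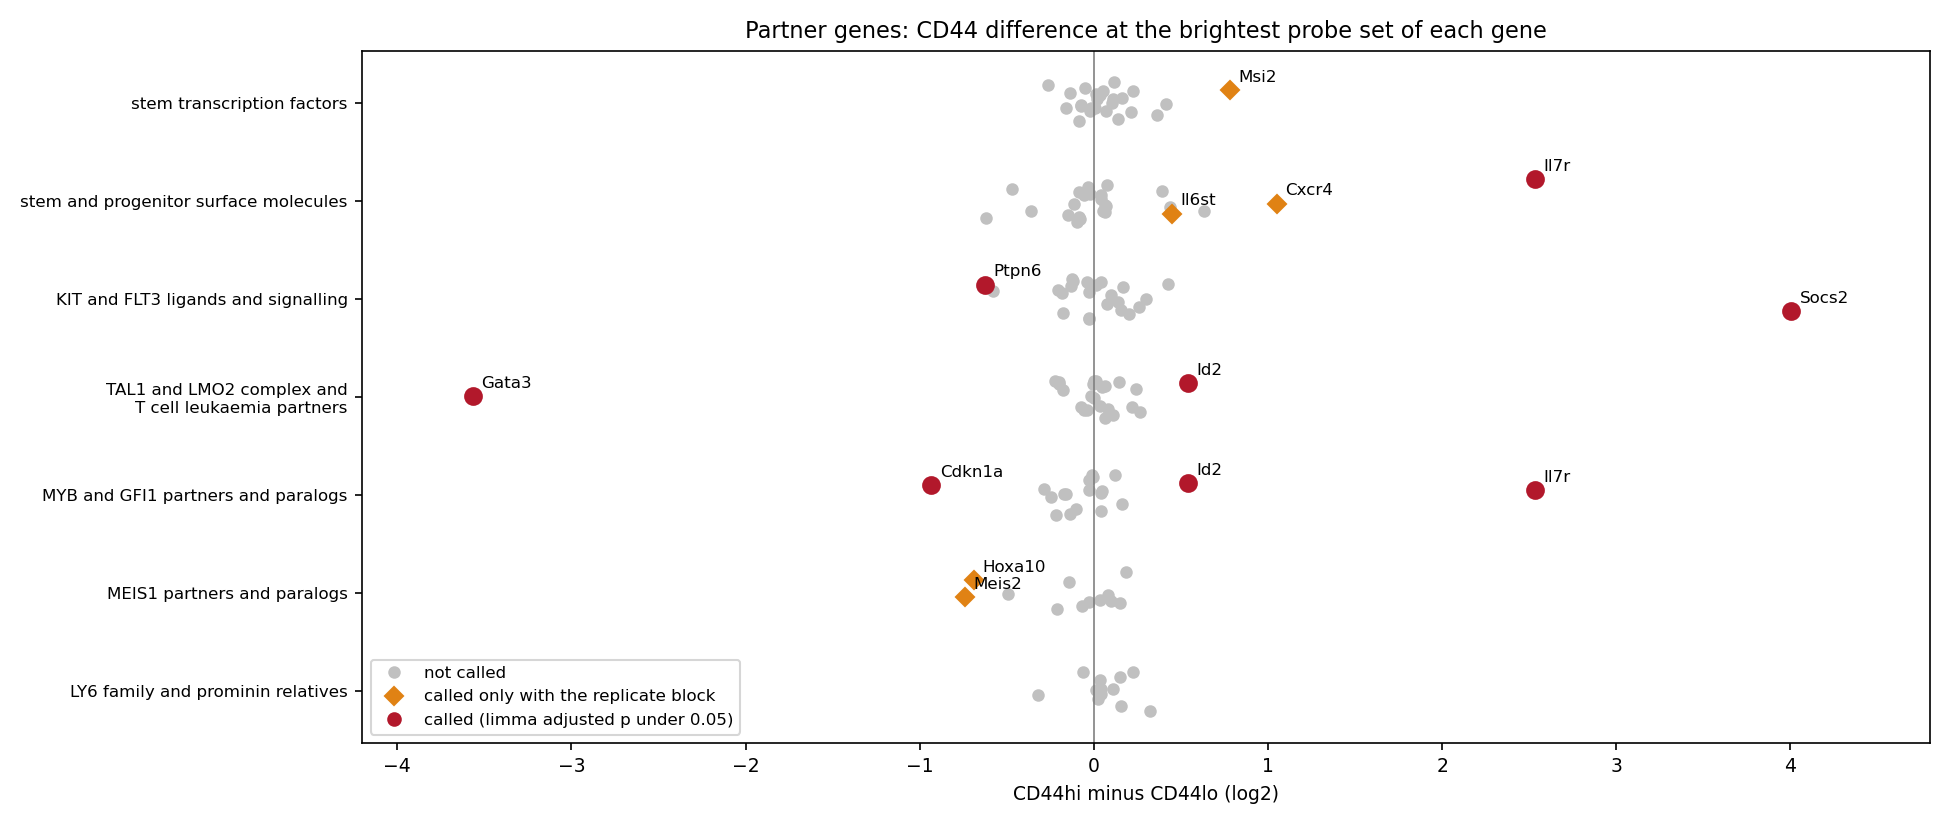
CD44hi minus CD44lo on the log2 scale (horizontal axis) for the partner genes of 7 lists (vertical axis), with 1 point per gene in each list at its brightest probe set. Il7r, Id2, Lyl1, Gata2, Runx1, Cbfa2t3 and Kdm1a stand in 2 lists each. Red points passed (limma adjusted p under 0.05), orange diamonds passed only with the replicate block, and grey points did neither; Gata3 at -3.57 and Socs2 at 4.01 are the extremes.

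Markers of other cells that use these genes were read beside the members. Of 11 erythroid, 10 mast cell and 9 megakaryocyte markers, which cover lineages that keep KIT, TAL1 or LMO2, 0 were called by limma (1, 0 and 0 had an unadjusted p under 0.05), and 5, 6 and 6 of them lay below the 25th percentile in both groups. Klf1, an erythroid factor, had means of 7.18 on CD44hi and 6.58 on CD44lo arrays and did not pass (limma adjusted p = 0.214). Among 16 granulocyte and monocyte markers Cebpa, a myeloid transcription factor, rose by 0.52 (SE 0.08, limma adjusted p = 0.0067), and 9 of the list lay below the 25th percentile in both groups. Among 13 endothelial markers Pecam1, which T cells also express, rose by 0.99 (SE 0.19, limma adjusted p = 0.0249), a call kept in 1 of the 8 fits that leave out 1 array, that without CD44hi replicate 4 (adjusted p up to 0.0671 in the others), and 8 lay below that level. The summed linear intensity of the endothelial list was 1428 to 2044 on CD44hi arrays and 1035 to 1268 on CD44lo arrays. Pecam1 is part of this sum, at log2 intensities of 9.63 to 10.39 in CD44hi and 8.60 to 9.22 in CD44lo. The endothelial sum without Pecam1 was not computed. Of 10 B cell markers 0 were called by limma (2 had an unadjusted p under 0.05), and 5 lay below the 25th percentile in both groups. Their summed intensity was 533 to 745 on CD44hi arrays and 471 to 509 on CD44lo arrays. How often the sum of such a list separates the groups was not computed. The erythroid sums overlapped, at 843 to 1193 and 864 to 966, and so did the mast cell sums, at 1009 to 1591 and 1317 to 1802. Overlap was also seen for the granulocyte and monocyte sums, at 1007 to 2073 and 959 to 1544.5. Megakaryocyte sums overlapped too, at 455 to 523 and 461 to 525. The part of such cells in the Lmo2 values was not tested.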

How the data were processed

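RNA of 8 samples, 4 CD44hi and 4 CD44lo, was measured on 1-colour Affymetrix Mouse 430A 2.0 arrays, with groups and replicate numbers taken from the titles. The deposited values are probe set intensity values that the authors made with RMA (background correction, normalization between arrays, summary of probes), per the labels' protocols, with version and options not given in the sources used here. They lie on a linear scale, so log2 was taken with no pseudocount. RMA compresses differences near background.

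Of 22690 probe sets 64 are controls; 20380 carry 1 symbol in the platform annotation, 691 several and 1555 none. All 22626 others were fitted with lmFit and eBayes of limma 3.58.1 (R 4.3.3), with Benjamini-Hochberg adjustment over all. The fits were also tried on simulated data with independent noise on each array. Those data lacked the likeness between arrays found here, so they do not give the error rates of these fits. Dimness was judged against 27 bacterial control probe sets and the 25th percentile. Members, lists and the split of arrays were chosen with earlier results of these data known. Named are all members, partner genes that were called or are direct partners, called or bright markers, and the nearest profiles, clone-named genes aside, to the 2 members with the largest difference. Thy1, Cd5, Ikzf1, Cd47 and the genes called only with the block (Hoxa10, Msi2, Cxcr4, Il6st) lie outside this rule.

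After subtraction of group means, arrays sharing a number correlated across groups at 0.572, 0.392, 0.540 and 0.541 over all probe sets, each over 0.1. The numbers were therefore taken to pair arrays in the fits with the replicate block. The main fits, of the CD44 difference and of the interaction, left the pairing out, so their p-values are unpaired. Arrays 1 and 3, and 2 and 4, correlated across groups at 0.371 to 0.521. CD44lo array 2 correlated more with CD44hi array 4 (0.436) than with CD44hi array 2 (0.392), so the values do not single out the pairs. The pairing comes from the values, not the labels. Alternatives were normalization, centring, filter, probe set choice, variance model, array weights, the block, subsets of numbers and leaving out each array.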

Additional observations from a re-analysis of the deposited data

Results flagged for a closer look

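For Myb at 1421317_x_at the CD44 difference passed as changing between sets of arrays when all 8 were fitted without the block: the difference at numbers 1 and 3 exceeded that at numbers 2 and 4 by 0.97 on the log2 scale (limma interaction, adjusted p = 0.0372). The call was lost with the replicate block (adjusted p = 0.0924) and in 6 of the 8 fits that leave out 1 array, all but those without CD44hi replicate 2 or 4 (adjusted p up to 0.201).

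In 1 of 24 groups of 4 member values, 1 array lay far from the others: Prom1 on CD44lo replicate 2 had a log2 intensity of 3.75, with 4.12 to 4.15 on the other three arrays. Chance gives about 1 in 20 for independent values.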

How the results depend on the processing

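Among 325 recomputed values of member probe sets 313 stayed on their side of the threshold, 5 passed newly, 7 lost the call and 0 called values reversed; 24 uncalled values changed sign. The replicate block changed no call on the CD44 difference of a member; it ended the Myb interaction call (0 members and 0 of all probe sets called, against 1 and 194). Against 0 members higher, array weights called 1 (Myb at 1422734_a_at), numbers 1 and 3 alone 2, and numbers 2 and 4 alone 1. Against 371 higher and 334 lower probe sets, the counts were 571 and 594 with the replicate block, 620 and 656 with array weights, 561 and 561 for numbers 1 and 3, 191 and 194 above the median (11313 tested), and 220 lower with 1 probe set per gene (12393 tested). Over the fits without 1 array the higher ones numbered 256 to 347 and the lower ones 200 to 338, with 214, 211 and 200 lower without CD44lo replicate 2, 3 or 4. Against 3 higher and 3 lower partner genes, quantile normalization called 5 higher, array weights 7 and 6, the replicate block 6 and 5, and numbers 2 and 4 alone 6 higher; leaving out 1 array gave 2 to 4 of each. Against 194 interaction calls the filter gave 375 and the trend with a robust prior 395. Leaving out 1 array gave 5 to 447, and 0 to 2 members: 12 and 12 without CD44hi replicate 1 or 3, 447 and 2 members without CD44hi replicate 4, and 6, 5, 13 and 6 without CD44lo replicate 1, 2, 3 or 4. Such a fit has fewer samples. The cause of the other changes was not tested.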

Other observations

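Beyond Myb, 2 genes of the partner lists had, at their brightest probe sets, a CD44 difference that passed as depending on the set of arrays, and neither call held with the replicate block. Such calls numbered 194 over all probe sets, 5 to 447 when 1 array was left out and 0 with the block (limma; 3047 probe sets, or 13.5%, had an unadjusted p under 0.05 there). Ikzf1, the lymphoid transcription factor Ikaros, was at 6.99, 8.21, 7.00 and 8.47 on CD44hi arrays 1 to 4 and at 7.43, 7.47, 7.34 and 7.57 on CD44lo arrays 1 to 4. Its CD44 difference was -0.39 at numbers 1 and 3 and 0.82 at numbers 2 and 4 (limma interaction -1.20, SE 0.15, adjusted p = 0.0252, or 0.0924 with the block, and up to 0.145 with 1 array left out, where the 2 fits without CD44hi replicate 2 or 4 passed). In CD44hi cells it was low on the 2 arrays where Myb was high. Cd47, which codes for a signal against phagocytosis, was at 13.25, 13.37, 13.22 and 13.40 in CD44hi and at 12.92, 12.39, 12.95 and 12.44 in CD44lo at its brightest probe set. Its difference was 0.30 at numbers 1 and 3 and 0.97 at numbers 2 and 4 (limma interaction -0.67, SE 0.11, adjusted p = 0.0498, or 0.143 with the block, and up to 0.236 with 1 array left out, where the 1 fit without CD44hi replicate 4 passed). Both genes were chosen after their values were seen.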
